A study of Mus musculus with 6 samples.

Results

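The 10 genes described here encode the enzymes and helper proteins that turn prohormones into hormones inside secretory granules, and the granins packed beside them. They were chosen by name from what their products do: the convertases *Pcsk1* and *Pcsk2*, the exopeptidase *Cpe*, the convertase regulators *Pcsk1n* and *Scg5*, and the granins *Chga*, *Chgb*, *Scg2*, *Scg3* and *Vgf*. All 10 were among the 55060 genes of the deposited table, and all 10 passed the filter on low values that left 21211 genes for testing. RNA was sequenced from islets of Ctrl and cKO mice (labelled CKO) at 12 weeks of age, with 3 samples per genotype. The floxed line was made in C57BL/6 zygotes. In cKO mice, both alleles of *Parn*, which encodes an exonuclease that shortens poly(A) tails, carried loxP sites around exon 7, and Cre was expressed from the *Ins2* promoter. Ctrl mice were *Parn* f/f animals and other littermates, so that the floxed allele was not limited to cKO and the Cre status of each Ctrl sample was not given. The labels do not say whether each sample came from 1 mouse or from pooled mice, and the p-values measure the spread between these samples.

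Insulin is made as proinsulin, which is folded in the endoplasmic reticulum and packed into immature granules. There, PC1/3 (the product of *Pcsk1*) and PC2 (the product of *Pcsk2*) cut it after pairs of basic residues, and carboxypeptidase E (*Cpe*) trims the basic residues left behind. ProSAAS (*Pcsk1n*) can inhibit PC1/3, and 7B2 (*Scg5*) is needed for PC2 to become active. Granins are acidic proteins that aggregate in the trans-Golgi network, serve as a matrix of the granule core and are themselves cut into peptides. In islets, β cells use both convertases for insulin, whereas α cells rely mainly on PC2 to release glucagon, so that RNA of isolated islets mixes the 2 sources.

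The reads on genes, recovered from the FPKM, summed to 16470783 to 17519109 in Ctrl and 16289408 to 17944775 in cKO. The library sizes by which the FPKM had been scaled were 15731223 to 18085944, below the reads on genes in all 3 Ctrl samples and above them in all 3 cKO samples, so they are scaling sizes rather than numbers of reads sequenced, and the scaling differed with genotype. *Ins1* and *Ins2* together took 26.5% to 30.1% of the reads on genes in Ctrl and 22.03% to 24.6% in cKO. The floxed gene *Parn* had an FPKM (fragments scaled by gene length and library size) of 6.64, 8.34 and 7.38 in Ctrl and of 4.97, 4.61 and 6.15 in cKO, with every cKO sample below every Ctrl sample (log2 fold change -0.44, SE 0.131, limma adjusted p = 0.545). The value counts reads over the whole gene and over islet cells without Cre. Markers of β cells were present in full (12 of 12 above a mean FPKM of 1), as were markers of α (8 of 8) and δ cells (5 of 5). Ctrl replicate 1 stood apart, with a summed FPKM of red blood cell markers of 1204 against 186 to 240 in the other samples and of leukocyte markers of 1232 against 251 to 439.

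These genes were among the most abundant transcripts of the islet. By mean FPKM over both genotypes, *Chga* ranked 10th, *Scg2* 19th, *Chgb* 28th, *Cpe* 29th, *Scg5* 44th, *Pcsk1n* 49th, *Scg3* 64th, *Pcsk2* 75th and *Pcsk1* 169th of all genes, and *Vgf* ranked 4777th. Together the 10 genes took 2.73% to 2.77% of the reads on genes in Ctrl and 2.86% to 3.03% in cKO. With the insulin reads left out of the total, the ranges overlapped, with 3.77% to 3.91% in Ctrl and 3.79% to 4.004% in cKO.

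**Figure D1:**
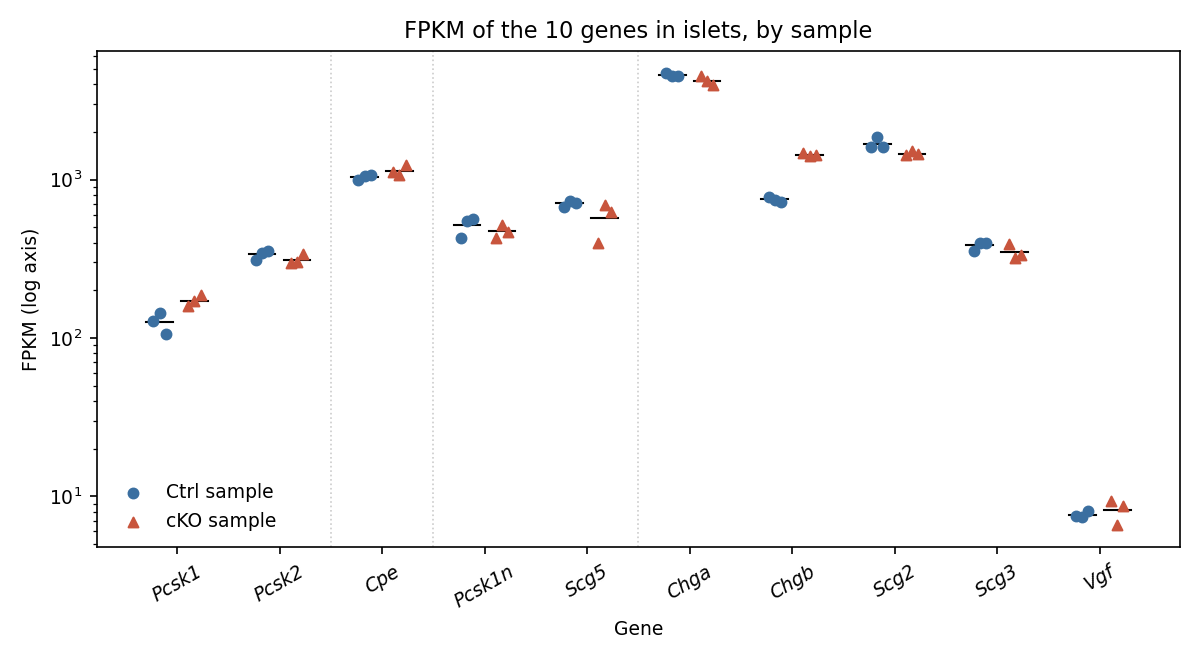
FPKM of the 10 genes in each of the 6 islet samples, on a log axis. Circles are Ctrl samples, triangles are cKO samples and lines are means of 3 samples, and dotted lines separate convertases, exopeptidase, convertase regulators and granins. The cKO samples of *Chgb* lie between 1413 and 1461, apart from the Ctrl samples at 726 to 781.

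The order of the levels differed between the genotypes at 1 place in the upper part of the list. In Ctrl, mean FPKM decreased in the order *Chga*, *Scg2*, *Cpe*, *Chgb*, *Scg5*, *Pcsk1n*, *Scg3*, *Pcsk2*, *Pcsk1* and *Vgf*, and of the 9 pairs of neighbours the samples overlapped only for *Chgb* and *Scg5*. In cKO, *Chgb* stood above *Cpe* and beside *Scg2*, whose samples overlapped with it, and the samples also overlapped for *Scg5* and *Pcsk1n* and for *Scg3* and *Pcsk2*. Across all 6 samples, 5 of 9 neighbouring pairs kept 1 order in every sample and reached the smallest p that an exact two-sided paired permutation test can give with 6 samples (p = 0.03125, Benjamini-Hochberg adjusted 0.05625). *Chgb* and *Cpe*, with means of 1090 and 1087 FPKM, could not be ordered (higher in 3 of 6 samples, exact permutation p = 0.75), since *Chgb* was the lower of the pair in all Ctrl samples and the higher in all cKO samples.

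Of the 10 genes, *Chgb* and *Pcsk1* were higher in cKO at an unadjusted p under 0.05, and none was lower. Among all 21211 genes tested, 7.4% passed that threshold, 4.33% higher and 3.07% lower in cKO, and among the 289 genes with a mean FPKM of 100 or more it was 11.8%. By limma's voom, fitted to reads recovered from the FPKM, the same 2 genes were higher and none was lower, beside 4.61% higher, 2.84% lower and 7.44% in either direction of all genes. No gene of the table passed an adjusted p of 0.05 (limma on log2(FPKM + 1), Benjamini-Hochberg adjustment over all genes), with 1570 genes at an unadjusted p under 0.05, and none did by voom, with 1579. Without overlap between the samples of the genotypes, *Chgb*, *Pcsk1* and *Cpe* were higher and *Scg2* was lower, which makes 4 of 10, against 13.1% of all genes (7.11% higher and 6.03% lower) and 20.8% of those 289. With Ctrl replicate 1 left out, *Pcsk2*, *Pcsk1n*, *Scg5* and *Scg3* joined *Scg2* below the 2 remaining Ctrl samples, and 8 of 10 genes did not overlap, against 29% of all genes. The median log2 fold change of the 10 genes was -0.11, beside -0.01 over all genes.

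**Figure D2:**
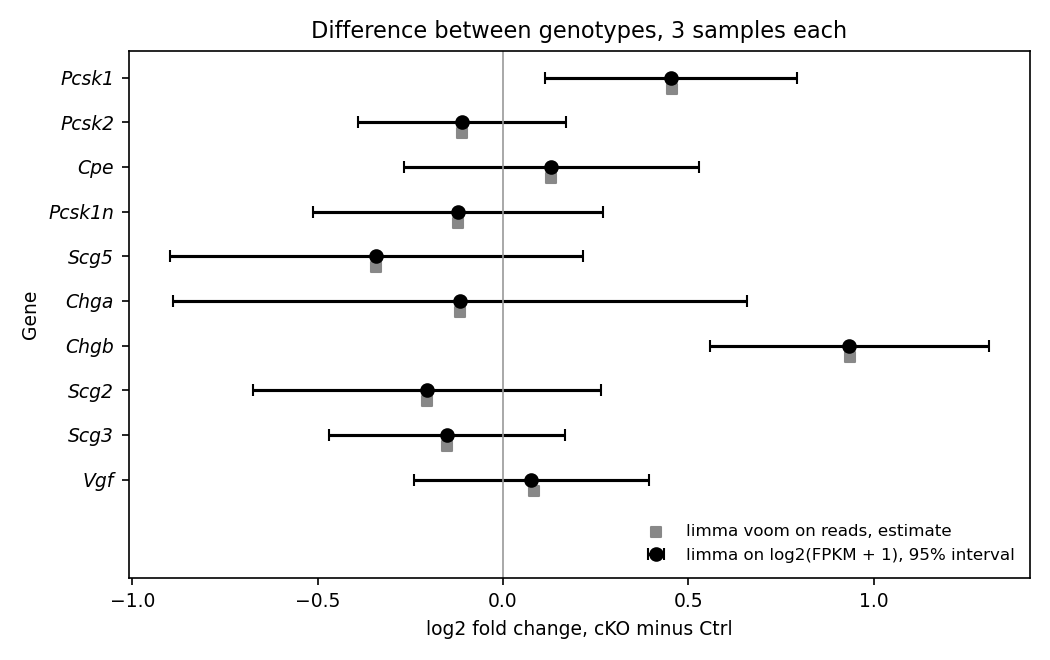
Log2 fold change of each gene between cKO and Ctrl (3 samples each). Black points are limma estimates on log2(FPKM + 1) with 95% intervals, and grey squares are limma voom estimates on reads. The intervals of *Chgb* (0.56 to 1.31) and *Pcsk1* (0.11 to 0.79) lie above 0, and those of the other 8 genes include it.

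*Chgb* encodes chromogranin B, a granin of the granule core. The gene (ENSMUSG00000027350) lies on chromosome 2 of GRCm38 from 132781278 to 132795079 on the plus strand, with 1 annotated transcript of 5 exons and no overlapping gene. Its FPKM was 781, 741 and 726 in Ctrl and 1461, 1413 and 1422 in cKO, from 31921 to 70474 reads per sample. The genotypes were far apart relative to the replicates, with a lowest cKO sample 1.81 times the highest Ctrl sample and coefficients of variation of 3.78% in Ctrl and 1.77% in cKO. The means were 749 ± 28.3 and 1432 ± 25.4 FPKM (SD, n = 3), a 1.91-fold difference. On the log2 scale, cKO was higher by 0.93 (SE 0.157, 95% interval 0.56 to 1.31). The unadjusted p of 0.000749 ranked 49th of 21211 genes, and the limma adjusted p was 0.308. By voom, the log2 fold change was 0.94 and *Chgb* had the smallest p of all genes, with a limma voom adjusted p of 0.0885. The voom adjusted p was 0.0361 when the reads on genes were used as library size. In that fit the median log2 fold change of all genes was 0.07, with 1499 genes higher and 328 lower at an unadjusted p under 0.05. With the reads of *Ins1* and *Ins2* left out of that library size, the voom adjusted p of *Chgb* was 0.0515. Without Ctrl replicate 1 its log2 fold change was 0.96 by limma on log2(FPKM + 1), with an adjusted p of 0.161, and 0.97 by voom, with an adjusted p of 0.00304. Its log2 fold change kept its direction, at 0.73 to 1.07, and an unadjusted p under 0.05 in 28 of 28 alternatives tried, over which its adjusted p ran from 0.00304 to 0.742 (limma or voom).

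Among the 289 genes at a mean of 100 FPKM or more, *Chgb* had the 8th largest difference in either direction, where the median size was 0.21 on the log2 scale. Several of the 7 genes above it, such as *Prss3*, *Amy2a1* and *Amy2b*, encode digestive enzymes of acinar cells. Acinar markers had a summed FPKM of 7498 to 20255 in Ctrl and 9410 to 33669 in cKO, with positive log2 fold changes for 12 of 12 genes and a median of 0.61. Stromal markers were at 32.4 to 47.6 and 40.7 to 83.7, with positive log2 fold changes for 9 of 9 genes and a median of 0.72. Endothelial markers did not overlap (a summed FPKM of 128 to 145 in Ctrl and 149 to 188 in cKO), and summed β-cell markers, which are mostly *Ins2*, were lower in cKO (236055 to 276610 in Ctrl and 195535 to 217774 in cKO). Markers of α cells, where *Chgb* is also made, overlapped (11124 to 16388 and 8789 to 16351). The part of these lists in the difference was not tested, and in whole islets fewer cells of a type and less RNA per cell cannot be told apart.

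**Figure D3:**
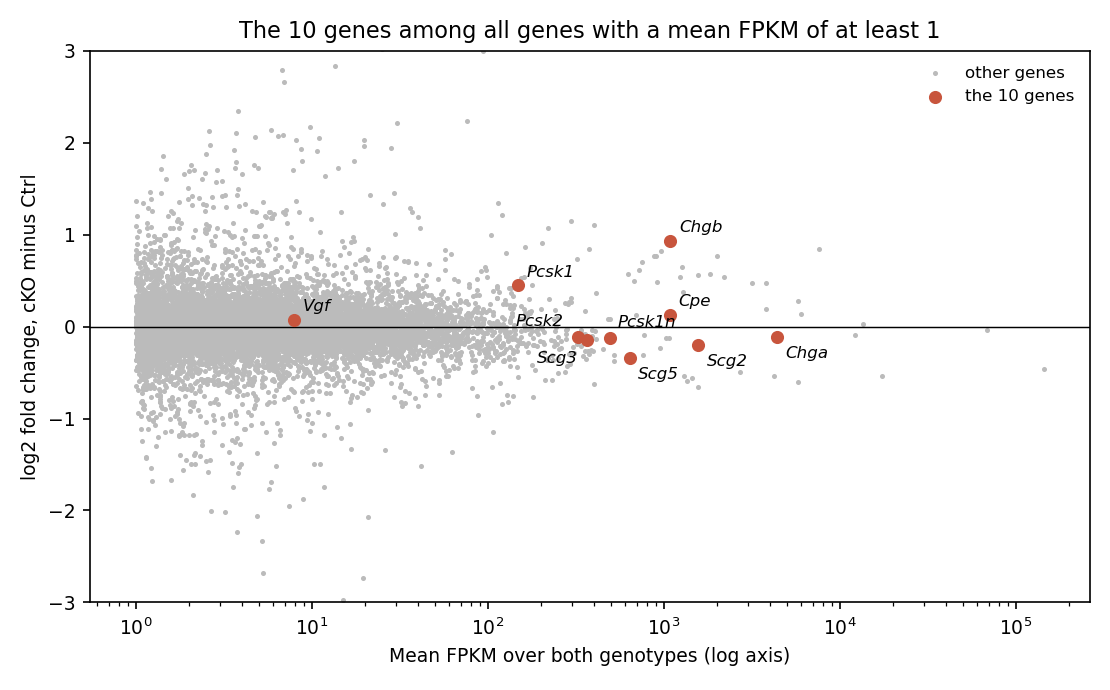
Log2 fold change (cKO minus Ctrl, limma on log2(FPKM + 1)) against mean FPKM on a log axis for the 13363 genes at a mean FPKM of 1 or more, of which 3 lie outside the vertical range drawn. The 10 genes are red, and *Chgb*, at 0.93, lies at the upper edge of the genes of similar level, while *Pcsk1*, at 0.45, lies lower on the axis of level and of difference.

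Around *Chgb*, 11 genes within 500 kb of it were tested. Their median log2 fold change was 0.20. In the limma fit, 2 were higher and none lower at an unadjusted p under 0.05, beside 4.33% and 3.07% of all genes. At an adjusted p under 0.05 there were 0. Those 2 are the antisense transcripts *Gm14097* (0.49) and *Gm14104* (0.33), named after their values were seen because the count was small. For the 3 nearest protein-coding genes, the log2 fold changes were 0.23 in *Trmt6*, -0.06 in *Mcm8* and 0.38 in *Shld1* (adjusted p of 0.820, 0.955 and 0.691 by limma).

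The 5 granins did not share a direction. *Chga* encodes chromogranin A, the most abundant of them, on chromosome 12 from 102554969 to 102565028. Its FPKM was 4684, 4481 and 4525 in Ctrl and 4495, 4173 and 3981 in cKO. The genotypes overlapped narrowly, since only cKO replicate 1 reached the Ctrl range. Means were 4563 ± 106 and 4216 ± 260 FPKM (SD, n = 3). The log2 fold change of -0.12 (SE 0.322, limma adjusted p = 0.957) turned to 0.02 in TPM, where each sample is scaled to the same sum. In TPM the median over all genes was 0.08, against -0.01 in the main fit. The SE is that of a fit whose prior spread follows the level of all genes, and voom gave *Chga* an SE of 0.0966.

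*Scg2* encodes secretogranin II, the precursor of secretoneurin, on chromosome 1 from 79434669 to 79440120. The Ctrl samples had an FPKM of 1596, 1848 and 1609, and the cKO samples 1430, 1507 and 1441. Every cKO sample was below every Ctrl sample, the reverse of *Chgb*. With means of 1685 ± 142 and 1459 ± 41.9 FPKM (SD, n = 3), the log2 fold change of -0.20 (SE 0.195) did not pass the test (limma adjusted p = 0.841).

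*Scg3* encodes secretogranin III, which links chromogranin A to the cholesterol-rich granule membrane, on chromosome 9 from 75643189 to 75684056. Its FPKM was 354, 398 and 400 in Ctrl and 390, 318 and 332 in cKO. The samples overlapped, with cKO replicate 1 inside the Ctrl range and the other two below it. Its log2 fold change of -0.15 did not pass the test (SE 0.132, limma adjusted p = 0.823).

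*Vgf*, an extended granin and precursor of secreted peptides, lies on chromosome 5 from 137026392 to 137033351 and was far below the others. It had 7.48, 7.36 and 8.13 FPKM in Ctrl and 9.31, 6.60 and 8.69 FPKM in cKO, from 341 to 486 reads per sample. The Ctrl range lay inside the cKO range. For *Vgf*, the log2 fold change was 0.08 (SE 0.132, limma adjusted p = 0.922), and it was -0.01 without cKO replicate 1.

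The summed granin FPKM overlapped between the genotypes, at 7269 to 7475 in Ctrl and 7185 to 7784 in cKO, whereas its composition did not. Of it, *Chgb* made up 10.5%, 9.91% and 9.99% in Ctrl and 18.8%, 19.05% and 19.8% in cKO. The share of *Chga* was 59.9% to 63.1% in Ctrl and 55.4% to 57.7% in cKO. Within each sample, the ratio of *Chga* to *Chgb* was 5.999, 6.05 and 6.23 in Ctrl and 3.08, 2.95 and 2.80 in cKO. This ratio does not depend on the library size, and its log2 value differed by -1.05, with an SD of 0.0290 between Ctrl and of 0.0685 between cKO samples. An exact two-sided permutation test of 3 samples against 3 cannot go below 0.1, the p found here (0.114 adjusted over 8 ratios).

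*Pcsk1* encodes PC1/3, the convertase that starts proinsulin cleavage. The gene (ENSMUSG00000021587) lies on chromosome 13 from 75089826 to 75134861 on the plus strand. Its FPKM was 128, 145 and 105 in Ctrl and 158, 171 and 187 in cKO, from 9827 to 18958 reads per sample. Every cKO sample was above every Ctrl sample, though the gap was small, the lowest cKO sample being 1.09 times the highest Ctrl sample. The means were 126 ± 19.7 and 172 ± 14.6 FPKM (SD, n = 3). This amounted to a log2 fold change of 0.45 (SE 0.141, 95% interval 0.11 to 0.79) with an unadjusted p of 0.0167 (limma adjusted p = 0.546, voom 0.443). Without cKO replicate 3 it was 0.39, at an unadjusted p of 0.0616 in the limma fit, the only one of 28 alternatives in which p was 0.05 or more. It ranged from 0.33 to 0.59 over them.

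*Pcsk2* encodes PC2, the second convertase of the pathway, on chromosome 2 from 143546156 to 143816285. It was the more abundant of the pair per length, with an FPKM of 313, 344 and 353 in Ctrl and of 296, 302 and 338 in cKO. Only cKO replicate 3 reached the Ctrl range. The means were 337 ± 21.4 and 312 ± 22.7 FPKM (SD, n = 3). The log2 fold change was -0.11 (SE 0.117, limma adjusted p = 0.858) and 0.03 in TPM. The antisense transcripts *Pcsk2os1* and *Pcsk2os2* overlap the gene, at 3.23 to 4.58 and 0.296 to 0.874 FPKM, and whether reads were counted by strand is not given in the sources used here.

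The ratio of *Pcsk1* to *Pcsk2* within a sample was 0.410, 0.420 and 0.298 in Ctrl and 0.534, 0.565 and 0.554 in cKO. All cKO samples were above all Ctrl samples, and the cKO values lay closer together. The difference was 0.56 on the log2 scale (exact permutation p = 0.1, the smallest possible, 0.114 adjusted over 8 ratios). Set against the transcripts of the substrate, *Pcsk1* had 0.591, 0.597 and 0.416 FPKM per 1000 FPKM of *Ins1* and *Ins2* in Ctrl and 0.883, 0.907 and 0.928 in cKO, a difference of 0.78 on the log2 scale. The same ratio for *Pcsk2* differed by 0.21 and that for *Cpe* by 0.45, neither with overlap. These 3 ratios share a denominator that was lower in cKO, so they are not independent of each other (exact permutation p = 0.1 for each, the smallest possible).

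*Cpe* encodes carboxypeptidase E, which follows the convertases, on chromosome 8 from 64592542 to 64693054 on the minus strand. Its FPKM was 997, 1049 and 1064.1 in Ctrl and 1118, 1064.5 and 1228 in cKO. The genotypes did not overlap, but cKO replicate 2 and Ctrl replicate 3 were practically equal. Means were 1037 ± 35.0 and 1137 ± 83.2 FPKM (SD, n = 3). Their log2 fold change was 0.13 (SE 0.166, limma adjusted p = 0.891), and it was -0.12 after quantile normalization.

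*Pcsk1n* encodes proSAAS, the inhibitor of PC1/3, on chromosome X from 7919822 to 7924410. It had 427, 550 and 564 FPKM in Ctrl and 428, 513 and 469 FPKM in cKO. The cKO samples lay within the Ctrl range, whose low end was Ctrl replicate 1. The log2 fold change was -0.12 (SE 0.163, limma adjusted p = 0.896) and 0.02 in TPM. The ratio of *Pcsk1* to *Pcsk1n* was 0.300, 0.263 and 0.187 in Ctrl and 0.369, 0.333 and 0.399 in cKO, a difference of 0.57 on the log2 scale (exact permutation p = 0.1, the smallest possible, 0.114 adjusted over 8 ratios).

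*Scg5* encodes 7B2, the partner of PC2, on chromosome 2 from 113776362 to 113829121. Its FPKM was 675, 734 and 711 in Ctrl and 398, 694 and 627 in cKO. Replicate 1 of cKO was far below all other samples, replicate 2 was inside the Ctrl range and replicate 3 just below it. The coefficient of variation was 4.21% in Ctrl and 27.1% in cKO, the largest of the 10 genes. In the fit, *Scg5* had a log2 fold change of -0.34 (SE 0.232, limma adjusted p = 0.820), and -0.10 without cKO replicate 1. The ratio of *Pcsk2* to *Scg5* overlapped (0.463, 0.469 and 0.497 in Ctrl and 0.743, 0.435 and 0.539 in cKO, exact permutation p = 0.4).

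The promoters of several of these genes are known to hold a cAMP response element, bound by CREB and related factors. RefSeq windows of 300 bases (250 before and 50 after the start of a gene, GRCm38.p6) were found for 8 of the 10 genes; none was found for *Cpe* and *Vgf*. The palindromic letters TGACGTCA, which read the same on both strands, stood in 3 of the 8, in *Chgb*, *Pcsk1* and *Scg2*, and in 1.79% of all 32851 windows. The 30 bases around each match are shown because they place the same element before the genes with the highest 2 fold changes of the 10 and before *Scg2*, in which every cKO sample was lower. Capitals mark the element, and each line reads 5′ to 3′ on the strand of the gene.
*Chgb*, chr2:132781559-132781588, plus strand: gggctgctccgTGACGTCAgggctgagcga
*Pcsk1*, chr13:75089768-75089797, plus strand: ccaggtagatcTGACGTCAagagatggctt
*Scg2*, chr1:79440076-79440105, minus strand: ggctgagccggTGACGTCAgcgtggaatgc

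The element began 72 bases before the RefSeq start in *Chgb*, 78 in *Pcsk1* and 68 in *Scg2*. In the GENCODE annotation, whose transcripts start further upstream, the match of *Chgb* and that of *Scg2* lie within an exon. No match of the full element stood in the windows of *Chga*, *Scg3*, *Pcsk2*, *Pcsk1n* and *Scg5*. Its first letters alone, TGACG on either strand, stood 3 times in *Scg5*, 1 time each in *Chga*, *Scg3* and *Pcsk2*, and 0 times in *Pcsk1n*. The share of all windows with these shorter letters was not counted. The log2 fold changes of the 3 genes with the element were 0.93 (SE 0.157), 0.45 (SE 0.141) and -0.20 (SE 0.195). Whether the element had a part in them was not tested.

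The prohormones that these enzymes cut were measured in the same samples. *Ins2* had 154877, 170487 and 178676 FPKM in Ctrl and 109030, 124186 and 132945 FPKM in cKO, with all cKO samples lower (log2 fold change -0.46, limma adjusted p = 0.982, voom 0.355). *Iapp*, encoding the precursor of amylin, had 17011, 23853 and 20792 FPKM in Ctrl and 14109, 14450 and 13486 FPKM in cKO, again with all cKO samples lower (-0.54, limma adjusted p = 0.896). *Ins1* and *Gcg*, the precursor of glucagon, overlapped between the genotypes, with log2 fold changes of -0.04 and -0.09. None of the 4 passed the test, and at these levels the trended fit had an SE of up to 2.87.

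Of 18 prohormone and propeptide genes tested, 4 were higher and 1 was lower in cKO at an unadjusted p under 0.05, and 0 at an adjusted p, with a median of 0.15. Beside this count and those of the lists below stand 4.33% higher and 3.07% lower of all genes at an unadjusted p under 0.05. Higher in all cKO samples were *Penk*, the proenkephalin gene (0.996 ± 0.677 in Ctrl and 3.98 ± 1.67 FPKM in cKO, SD, n = 3), *Nucb2*, the precursor of nesfatin (65.4 ± 6.44 and 90.7 ± 10.8), and *Gal*, the galanin gene (3.02 ± 0.674 and 6.43 ± 2.49). *Ucn3*, a marker of mature β cells, was lower (255 ± 61.7 and 167 ± 18.7) with overlapping samples. The remaining gene of the 5 was *Tac1*, named after its values were seen to complete the count (1.64 ± 0.804 and 3.92 ± 1.62). The lowest limma adjusted p of these 5 was 0.460.

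Among 17 other processing genes tested, 2 were higher at an unadjusted p under 0.05, and 0 at an adjusted p, with a median of -0.05. *Rnpep*, encoding aminopeptidase B, was at 3.57 ± 0.591 FPKM in Ctrl and 5.14 ± 0.565 in cKO, and *Qpctl*, encoding a glutaminyl cyclase of the Golgi, at 6.23 ± 0.281 and 7.72 ± 0.533 FPKM (SD, n = 3), both higher in all cKO samples. The log2 fold changes were 0.43 for *Rnpep* (SE 0.133, limma adjusted p = 0.546) and 0.27 for *Qpctl* (SE 0.0888, limma adjusted p = 0.581).

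The granule genes were evenly split, with 2 of 25 higher, 1 lower at an unadjusted p under 0.05, 0 at an adjusted p, and a median of 0.02. *Hid1*, needed for the maturation of dense-core granules, had 33.7 ± 5.07 FPKM in Ctrl and 46.4 ± 6.86 in cKO, and *Ica1*, encoding islet cell autoantigen 1, had 26.6 ± 1.35 and 32.0 ± 1.73 (SD, n = 3). *Ap1s2*, a subunit of the AP-1 adaptor that removes proteins from immature granules, had 41.7 ± 2.71 and 33.8 ± 2.69 FPKM. All 3 were without overlap, and the largest of their differences was 0.45 on the log2 scale.

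Of 13 genes for the folding of proinsulin in the endoplasmic reticulum, 3 were higher and 0 lower at an unadjusted p under 0.05, and 0 at an adjusted p, with a median of 0.25 against -0.01 over all genes. These were the chaperone *Calr* (198 ± 10.7 in Ctrl and 245 ± 11.2 FPKM in cKO), the peroxiredoxin *Prdx4* (12.6 ± 1.78 and 16.0 ± 0.982) and the disulfide isomerase *Txndc5* (36.2 ± 6.06 and 45.9 ± 1.97), all without overlap (SD, n = 3). The log2 fold change was positive for 11 of the 13. Ctrl replicate 3 was the lowest sample for *Calr*, *Prdx4* and *Txndc5*. It was also the lowest for *Hspa5*, with 351, 272 and 193 FPKM in Ctrl and 301 to 342 in cKO. The same held for *Pdia4*, *Pdia6*, *P4hb*, *Hsp90b1* and *Dnajc3*, but not for *Pdia3*, *Canx*, *Ero1l* and *Ero1lb*. Most genes of this list were thus lowest in 1 Ctrl sample, and its part in the median was not tested.

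Genes for known regulators of these 10 genes were estimated with uneven precision. The limma 95% interval was -1.48 to 1.14 for *Atf3* and -0.26 to 0.15 for *Ptbp1*. Of 18 tested, 0 were higher and 0 lower at an unadjusted p under 0.05 in the limma fit, so 0 at an adjusted p, and their log2 fold changes ran from -0.21 to 0.13. These included transcription factors such as *Pax6*, *Neurod1* and *Creb1*, the repressor *Rest* and the RNA-binding protein gene *Ptbp1*. Of 10 housekeeping genes, 0 were higher and 0 lower at that threshold, with a median of -0.09. Over the 5 lists of the pathway together, 11 of 91 genes tested were higher and 3 lower, beside 4.33% and 3.07% of all genes.

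**Figure D4:**
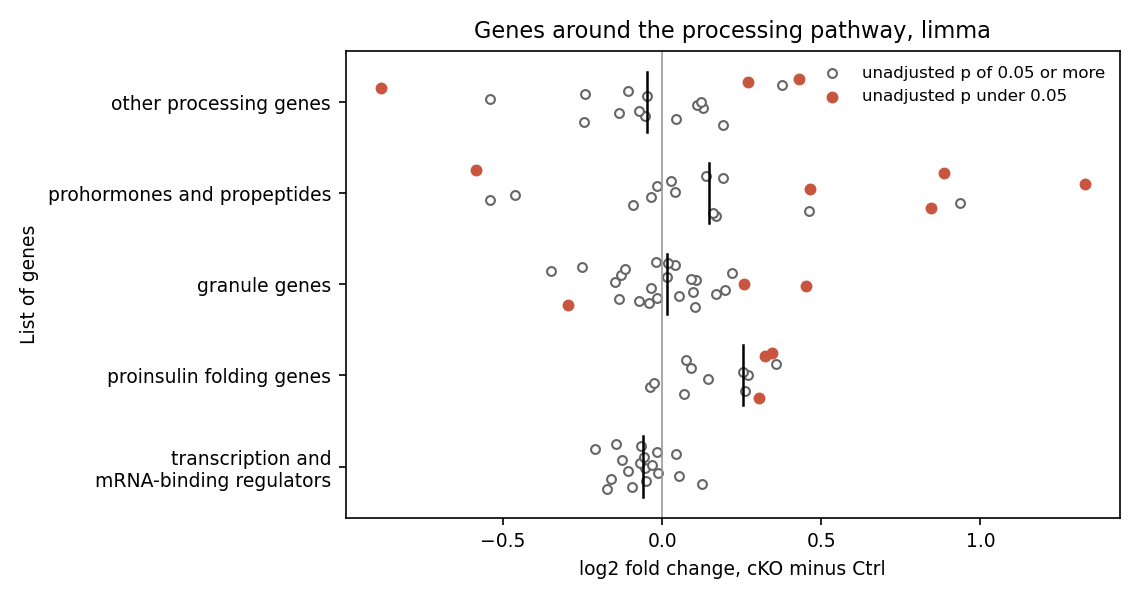
Log2 fold change (cKO minus Ctrl, limma on log2(FPKM + 1)) of the genes tested in each of 5 lists around prohormone processing. Red points have an unadjusted p under 0.05, open points do not, and black lines are medians. The median of the proinsulin folding genes is 0.25 and those of the other lists lie between -0.06 and 0.15.

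As a description over the 6 samples, the 3 genes outside the 10 whose log2(FPKM + 1) was most like that of *Pcsk1* were *Dync2li1* (Pearson r = 0.988), *Arf1* (0.982) and *Tcta* (0.981), out of 3864 genes at a mean FPKM of 10 or more. For *Pcsk2* they were *Atp6ap2* (0.984), *Svip* (0.982) and *Tmem222* (0.968). For the mean of the 5 granins they were *Coasy* (0.986), *Cdc42bpg* (0.986) and *Amigo2* (0.983). The 6 points share libraries and genotypes, and no test was run on these values.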

How the data were processed

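The authors isolated islets, extracted RNA with TRIzol and made libraries with a SMARTER mRNA kit. They deposited FPKM values per gene and sample, on GRCm38 (mm10) according to the submitters' processing notes, with 1 column per sample; the aligner, the counting tool and the annotation release are not given in the sources used here. Gene coordinates of the table equalled those of GENCODE M21 for all 10 genes. After multiplication by gene length, 100% of the FPKM values were whole numbers of reads (tolerance 0.05), which gave the reads and the library sizes used in the scaling (how these were set is not given in the sources used here). Scaling the FPKM again by the median of ratios between samples left the limma fit practically unchanged. The log2 fold change of *Chgb* was 0.9343 in both fits, with 919 genes higher and 651 lower at an unadjusted p under 0.05 in each.

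Genotypes were taken from the labels. Differences in log2(FPKM + 1) were tested by two-sided linear models (limma 3.58.1, R 4.3.3) with a mean-variance trend in the empirical Bayes step, for the 21211 genes that had a mean FPKM of 0.1 or more, and adjusted by Benjamini-Hochberg over them. Fold changes on this scale understate those of low genes. Log2 ratios of FPKM + 1 were compared with exact permutation tests in SciPy 1.17.1, and figures used matplotlib 3.10.9 in Python 3.11.15. The ratios given or drawn per sample are of FPKM without the added 1. The code was tested on simulated data. Alternatives were other pseudocounts, filters, scalings and variance models, voom, a replicate block and leaving out each sample. Voom with other library sizes, with a block and without each sample was chosen after seeing the data. The 10 genes and all lists were chosen with earlier results of these data known. Genes named from other lists passed an adjusted p of 0.05 or, where none did, were up to 4 with the smallest unadjusted p under 0.05 at a mean FPKM of at least 1; *Ins1*, *Ins2*, *Iapp* and *Gcg* were always named. Of 99 genes listed in 5 pathway lists, 95 were found by name and 91 passed the filter. Promoter windows are from RefSeq. Some genes that were tested are not reported here.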

Additional observations from a re-analysis of the deposited data

How the results depend on the processing

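Of 280 refits of the log2 fold changes of the 10 genes, 272 kept the direction and their side of an adjusted p of 0.05, and all 64 refits of the 8 ratios kept their direction. Direction reversed in 6: in TPM for *Pcsk2* (0.026), *Pcsk1n* (0.016) and *Chga* (0.022), after quantile normalization for *Cpe* (-0.12), and for *Vgf* without cKO replicate 1 (-0.012 by limma and -0.013 by voom, with ranges up to 0.21 and 0.23 over samples left out). The cause was not tested. In TPM the median log2 fold change over all genes tested was 0.077, above those of these 3 genes, against -0.014 in the main fit. *Chgb* passed an adjusted p of 0.05 by voom with the reads on genes as library size (1.02, adjusted p = 0.0361) and by voom without Ctrl replicate 1 (0.97, adjusted p = 0.00304). It did not pass by voom with the reads of *Ins1* and *Ins2* left out of that library size (0.93, adjusted p = 0.0515). The number of the 10 genes higher at an unadjusted p under 0.05 was 1 to 2 with samples left out, with 1 only without cKO replicate 3, and 3 by voom with the reads on genes as library size, where *Cpe* joined (unadjusted p = 0.0401, voom, log2 fold change 0.22), and the number lower was 0 to 2, with *Pcsk1n* and *Scg2* lower by voom without Ctrl replicate 1 and *Scg5* by voom without cKO replicate 2. All genes past an adjusted p of 0.05 numbered 2 higher by voom with the reads on genes as library size, and with samples left out 0 to 78 higher and 0 to 56 lower. All nonzero counts with a sample left out came without Ctrl replicate 1 (10 higher and 4 lower by limma, 78 and 56 by voom). Listed pathway genes higher numbered 17 in TPM and by voom with the reads on genes as library size, and with samples left out 4 to 14 by limma and 5 to 17 by voom (7 without Ctrl replicate 3). Those lower numbered 5 without a trend, 1 in TPM, 6 with sample weights, 5 by voom, by voom with reads other than those of *Ins1* and *Ins2* and by voom with a block, and with samples left out 1 to 9 by limma and 4 to 11 by voom. Among all genes with unadjusted p values under 0.05, 58.5% were higher in cKO, with 84.4% in TPM, 82.0% by voom with the reads on genes as library size, 69.8% by voom without cKO replicate 3, 50.4% with sample weights and 47.9% without Ctrl replicate 3, where more genes were lower than higher.

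Same-numbered samples share only a number: the correlations of their deviations were -0.17, -0.02 and -0.07. With the replicate number as a block, 2 of the 10 genes were higher and 0 lower, and the limma adjusted p was 0.741 for *Chgb* (log2 fold change 0.93) and 0.805 for *Pcsk1* (0.45). With 3 samples a genotype, exact tests cannot go below 0.1, and the precision of the low-level *Vgf* is limited to 341 to 486 reads per sample.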
